A study of Mus musculus with 15 samples.

Results

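Skeletal muscle transcripts were followed on 15 arrays of mammary epithelial cells through 34 genes of the sarcomere, calcium handling and energy metabolism of muscle fibres. The genes were taken from a list of named symbols, and each was read by the probe set of that single symbol with the highest mean over all arrays. Of the 34 genes, 31 were measured among 12393 genes in all, while Mybpc2, Neb and Ampd1 had no probe set of their own and gave no value. The measured genes comprise 13 of fast fibres, 4 of slow fibres and 14 that both fibre types use. No measured gene was listed at 0 on any array.

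Glands of injected C57BL/6 females (intraperitoneal route) were digested to obtain epithelial cells, and the cells' mRNA was hybridised on Affymetrix single-colour arrays. Arrays labelled pregnant (day 21) comprised 3 with 5-azacytidine (AzaC, an inhibitor of DNA methylation), 3 with valproic acid (VPA, an inhibitor of histone deacetylases) and 2 with PBS as the control. Arrays labelled virgin (9 weeks) comprised 3 with AzaC, 2 with VPA and 2 with PBS. The labels do not say whether replicates are separate mice, so the spread behind each p-value may be technical, and precision is limited by the number of arrays.

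The contractile unit of a muscle fibre, the sarcomere, slides myosin thick filaments along actin thin filaments, and the troponin complex on the thin filament opens this reaction when calcium is released. Fast and slow fibres build the same machine from different gene copies: fast fibres use their own myosin heavy chains, troponins and calcium pump, and slow fibres use copies that are in part shared with the heart. The rodent mammary gland lies under the skin next to thin sheets of skeletal muscle, and its own contractile cells, the myoepithelium, use smooth muscle genes instead.

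Some facts of the arrays come before the results. The milk protein genes Csn2, Wap, Lalba and Csn1s1 read between 13.41 and 14.42 on every array, those labelled virgin included. The signals of these milk genes do not separate the stage labels, and stages are named here as the labels give them. The highest value of the series was 14.48, and so near the top of the scale similar signals do not show equal amounts. Luminal epithelial markers (10 of 10 measured) had gene means of 10.87 to 14.29. The 3' minus 5' difference of the Gapdh control probe sets, a sign of RNA quality, was 1.23 on virgin PBS replicate 2, 0.85 on pregnant AzaC replicate 1 and 0.82 on pregnant VPA replicate 3, and at most 0.47 on the other arrays. The same difference of the beta-actin control was 1.44 on virgin PBS replicate 2 and 1.2 on pregnant VPA replicate 3. It was at most 0.68 on the other arrays, with 0.46 on pregnant AzaC replicate 1. Among salivary gland markers (9 of 11 measured), Smr3a stood apart on some arrays labelled virgin. Smr3a read 10.55 on VPA replicate 2, 13.08 on PBS replicate 1 and 8.61 on PBS replicate 2, and at most 5.05 on the rest. Bpifa2 and Amy1 were also highest on virgin PBS replicate 1, at 13.79 and 13.01. The list was not uniform: Smr2 was highest on pregnant VPA replicate 3, at 11.47, and Bhlha15 read 10.91 and 10.98 on the pregnant PBS arrays. Values are the deposited log2 signals. A probe set's brightness depends on its sequence, so levels are compared between arrays and not between genes.

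The upstream regions of both troponin C genes, of the fast light chain Mylpf and of slow troponin T are shown because these genes carry the contrast between fast and slow fibre genes described below. Each sequence is the 250 bases before the transcription start from RefSeq's promoter table (GRCm38.p6), read 5' to 3' along the gene. Capitals mark matches to the motifs searched on both strands: CAGCTG and CACCTG, which are E-boxes that myogenic factors can bind, CATTCC, the core of the MCAT element bound by TEAD factors, and TATAAA. Where a match lies on the opposite strand the capitals show its reverse complement. The regions are chr2:164779735-164779984 on the minus strand for Tnnc2, chr7:127211358-127211607 on the plus strand for Mylpf, chr14:31208062-31208311 on the plus strand for Tnnc1 and chr7:4515976-4516225 on the minus strand for Tnnt1.
Tnnc2: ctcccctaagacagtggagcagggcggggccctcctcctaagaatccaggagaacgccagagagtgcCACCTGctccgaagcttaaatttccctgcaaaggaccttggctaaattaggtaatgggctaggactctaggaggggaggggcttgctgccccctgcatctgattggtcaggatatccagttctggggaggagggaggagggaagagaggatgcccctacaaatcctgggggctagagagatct
Mylpf: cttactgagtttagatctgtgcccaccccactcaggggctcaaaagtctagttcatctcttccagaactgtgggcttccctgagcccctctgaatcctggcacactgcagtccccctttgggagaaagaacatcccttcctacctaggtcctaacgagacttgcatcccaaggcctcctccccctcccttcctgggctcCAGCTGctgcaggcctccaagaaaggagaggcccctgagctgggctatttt
Tnnc1: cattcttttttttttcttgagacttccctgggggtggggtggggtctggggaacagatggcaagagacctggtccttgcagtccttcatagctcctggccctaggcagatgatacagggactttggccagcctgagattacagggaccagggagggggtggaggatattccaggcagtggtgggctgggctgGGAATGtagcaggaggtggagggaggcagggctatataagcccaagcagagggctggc
Tnnt1: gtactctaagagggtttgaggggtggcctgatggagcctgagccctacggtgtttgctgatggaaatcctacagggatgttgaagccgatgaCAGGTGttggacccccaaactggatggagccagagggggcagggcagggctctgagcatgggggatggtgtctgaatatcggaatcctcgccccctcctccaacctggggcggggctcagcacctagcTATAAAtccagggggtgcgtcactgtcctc

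The fast gene Tnnc2 held CACCTG from 183 to 178 bases before the start, and Mylpf held CAGCTG from 51 to 46 bases before it. The slow gene Tnnc1 held CATTCC from 58 to 53 bases before the start. Tnnt1 held CACCTG from 158 to 153 and TATAAA from 30 to 25 bases before the start. Promoters were matched for 26 of the 34 genes. In at least 1 promoter, CAGCTG was present for 12 of the 26 (Acta1, Atp2a1, Cacna1s, Casq1, Ckm, Des, Mb, Myh4, Myl1, Mylpf, Pygm and Tnni1), against 13% of all 32851 promoters of that length. CACCTG was present for 7 (17.2% of all promoters), CATTCC for 9 (12.6%) and TATAAA for 5 (12.4%). A MEF2 site was found for Ttn alone (0.508% of all promoters), and a CArG box, the serum response factor motif, for Acta1, Ldb3 and Myh4 (1.47%). These motifs may overlap one another, some genes have several promoters, and a match is a run of letters and no measured binding.

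Fast fibre genes gave a strong signal on all 15 arrays, and their levels went up and down together from array to array. The fast myosin heavy chains are the motors of the thick filament. Myh4, the motor of the fastest fibres, read 12.64, 13.01 and 13.85 with AzaC, 13.47, 13.32 and 13.08 with VPA, and 13.09 and 12.05 with PBS under the pregnant label. Myh4 under the virgin label read 11.38, 12.54 and 13.1 with AzaC, 12.58 and 12.89 with VPA, and 12.98 and 12.38 with PBS. Myh1, the motor of the intermediate fast fibres, read 12.02, 12.12 and 13.29 with AzaC, 12.99, 12.92 and 12.97 with VPA, and 12.15 and 11.37 with PBS under the pregnant label. Virgin AzaC replicate 1 was the lowest array for both genes and pregnant AzaC replicate 3 the highest. Myh1 under the virgin label read 10.15, 11.2 and 12.45 with AzaC, 11.52 and 12.35 with VPA, and 11.77 and 11.43 with PBS. Myh2, the motor of fast oxidative fibres, read 9.93, 11.89 and 11.85 with AzaC, 11.46, 11.54 and 11.1 with VPA, and 10.91 and 9.79 with PBS under the pregnant label. Myh2 under the virgin label read 8.47, 9.81 and 10.99 with AzaC, 9.92 and 10.87 with VPA, and 10.78 and 9.07 with PBS. All 3 genes thus spanned over 2 log2 units across the arrays. The 3 heavy chain genes are close paralogues, and signal shared between their probe sets cannot be separated here.

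Mylpf, the regulatory light chain of fast myosin, read 9.79, 11.3 and 11.64 with AzaC, 12.1, 12.02 and 12.24 with VPA, and 11.83 and 9.88 with PBS under the pregnant label. Mylpf under the virgin label read 9.26, 9.91 and 11.04 with AzaC, 10.61 and 11.68 with VPA, and 10.81 and 10.14 with PBS. The 3 VPA arrays labelled pregnant were the highest of all for Mylpf, and the PBS arrays of that label differed by 1.95 from each other. Myl1, the alkali light chain of fast fibres, ranged from 9.29 on virgin AzaC replicate 1 to 12.74 on pregnant VPA replicate 1.

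The 3 subunits of fast troponin were all lowest on virgin AzaC replicate 1. Tnnc2, which binds calcium, read 11.61, 13.05 and 13.56 with AzaC, 13.33, 13.47 and 13.17 with VPA, and 12.89 and 11.31 with PBS under the pregnant label. Tnnc2 under the virgin label read 10.66, 12.18 and 13.2 with AzaC, 12.41 and 13.07 with VPA, and 12.63 and 11.74 with PBS. The low arrays, at under 12, were AzaC replicate 1 of both labels and PBS replicate 2 of both labels. Tnni2, the inhibitory subunit, read 11.65, 12.57 and 13.31 with AzaC, 12.64, 13.26 and 13.24 with VPA, and 12.76 and 11.62 with PBS under the pregnant label. Tnni2 under the virgin label read 10.84, 11.8 and 13 with AzaC, 12.03 and 12.88 with VPA, and 12.24 and 12.08 with PBS. For Tnni2 the arrays of each drug overlapped the PBS arrays of the same label. Tnnt3, which ties the complex to tropomyosin, read 10.93, 12.25 and 12.89 with AzaC, 12.47, 12.89 and 12.78 with VPA, and 12.17 and 10.73 with PBS under the pregnant label. Tnnt3 under the virgin label read 9.61, 11.11 and 12.4 with AzaC, 11.44 and 12.28 with VPA, and 11.65 and 10.83 with PBS. For Tnnt3 the VPA arrays labelled pregnant lay above both PBS arrays of that label, and the AzaC arrays overlapped the PBS arrays.

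Calcium is pumped back by Atp2a1, the fast fibre pump SERCA1, which read 12.19, 13.79 and 14.15 with AzaC, 13.94, 13.73 and 13.17 with VPA, and 13.45 and 11.66 with PBS under the pregnant label. Atp2a1 under the virgin label read 11.07, 12.79 and 13.53 with AzaC, 12.97 and 13.39 with VPA, and 13.46 and 11.84 with PBS. Its AzaC arrays spread more widely under either label than the AzaC and PBS means differed. Pvalb, the soluble calcium buffer of fast fibres, read 10.78, 11.89 and 12.39 with AzaC, 12.25, 12.49 and 12.61 with VPA, and 12.35 and 10.67 with PBS under the pregnant label. Pvalb under the virgin label read 10.08, 11.12 and 11.96 with AzaC, 11.71 and 12.32 with VPA, and 11.89 and 11.41 with PBS. The lowest array for Pvalb was again virgin AzaC replicate 1. The fast genes Casq1, the calcium store protein, Actn3, the fast fibre actinin of the Z-disc, and Myoz1, its partner calsarcin 2, had their lowest values on that array too, at 9.64, 8.49 and 8.84. A second, dimmer Myoz1 probe set correlated with the one used at 0.43. In all, 13 of 13 fast genes were lowest on virgin AzaC replicate 1, and 7 were highest on pregnant AzaC replicate 3.

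The 4 slow fibre genes did not keep to this order. Tnnt1, slow troponin T, read 5.07, 8.04 and 8.77 with AzaC, 9.12, 8.87 and 6.7 with VPA, and 4.12 and 7.33 with PBS under the pregnant label. Tnnt1 under the virgin label read 7.24, 8.83 and 8.19 with AzaC, 8.95 and 8.64 with VPA, and 8.51 and 4.3 with PBS. The 3 lowest arrays, pregnant PBS replicate 1, virgin PBS replicate 2 and pregnant AzaC replicate 1, read 4.12, 4.3 and 5.07, and the highest, pregnant VPA replicate 1, lay 5 units above the lowest. These 3 low values were under the lower quartile of probe sets on their arrays, at 5.15, 5.18 and 5.25, so the size of the swing rests on dim signals. Tnnc1, the troponin C of slow fibres and heart, read 6.44, 8.1 and 8.48 with AzaC, 8.91, 8.8 and 6.77 with VPA, and 5.6 and 7.36 with PBS under the pregnant label. Tnnc1 under the virgin label read 7.23, 8.5 and 8.18 with AzaC, 8.64 and 8.46 with VPA, and 8.22 and 5.68 with PBS. The same 3 arrays were the lowest for Tnnc1. Tnni1, the slow inhibitory subunit, read 6.49, 7.43 and 7.31 with AzaC, 7.73, 7.76 and 5.79 with VPA, and 6.34 and 7.01 with PBS under the pregnant label. Tnni1 under the virgin label read 7.05, 7.13 and 6.78 with AzaC, 7.57 and 7.43 with VPA, and 7.35 and 6.83 with PBS. For Tnni1 the lowest array was pregnant VPA replicate 3. Myh7, the slow and cardiac beta myosin heavy chain, read 7.59, 8.93 and 9.71 with AzaC, 9.36, 9.05 and 7.81 with VPA, and 8.03 and 8.61 with PBS under the pregnant label. Myh7 under the virgin label read 8.52, 9.29 and 8.6 with AzaC, 9.24 and 9.18 with VPA, and 9.23 and 8.17 with PBS. Its lowest array was pregnant AzaC replicate 1 and its highest pregnant AzaC replicate 3.

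**Figure D1:**
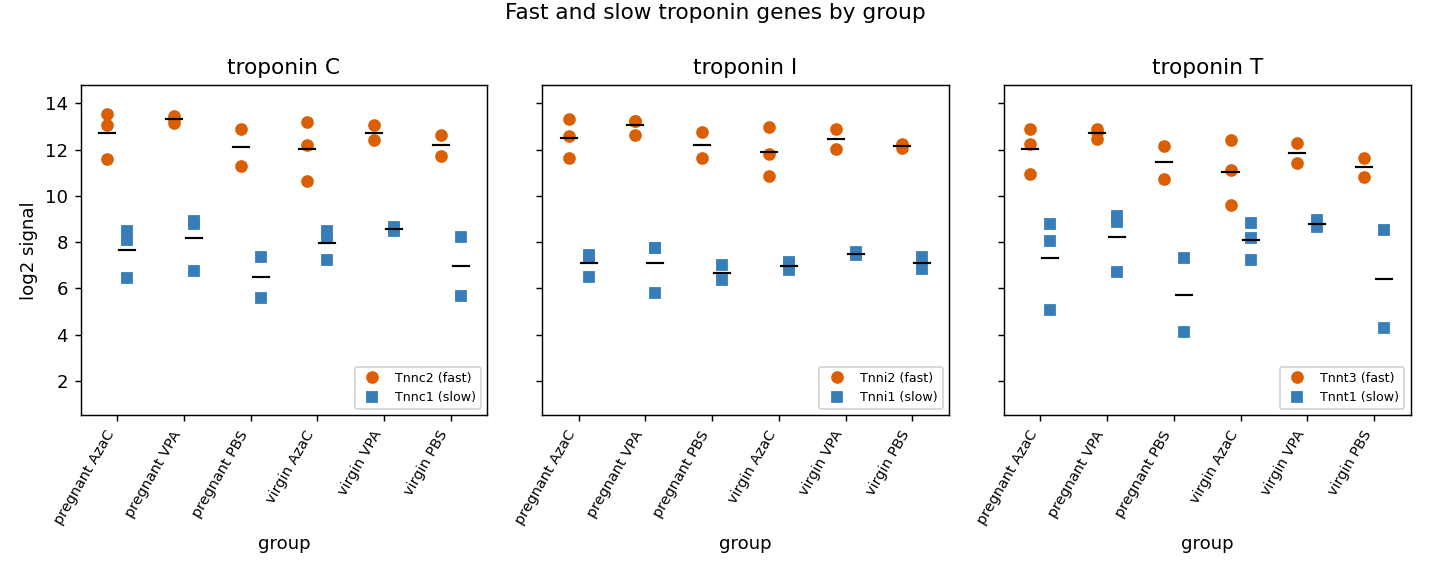
Log2 signal of the fast and slow copies of troponin C, I and T on each array, by group; every point is 1 array, circles are the fast and squares the slow gene, and bars are group means. Tnnt1 spreads from 4.12 to 9.12 and its VPA and PBS arrays labelled pregnant overlap; all 3 fast genes are lowest on a virgin AzaC array.

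Between some replicates the fast and the slow genes differed in sign or in size, and between others they went the same way. Between the 2 PBS arrays labelled pregnant, 13 of 13 fast genes were higher on replicate 1, by a median of 1.44, while 4 of 4 slow genes were lower there, with a median difference of -1.22. Among VPA arrays labelled pregnant, replicate 3 differed from replicate 1 by a median of 0.14 over the fast genes and of -2.04 over the slow genes. There 7 of 13 fast genes were higher on replicate 3 and 4 of 4 slow genes were lower. The mean of the fast genes on these 3 VPA arrays lay between 12.41 and 12.52, and that of the slow genes between 6.77 and 8.78. Virgin AzaC replicate 3 exceeded replicate 1 by a median of 2.30 over the fast genes and of 0.52 over the slow genes, of which 3 of 4 were higher. Fast and slow genes went the same way between the PBS arrays labelled virgin, where replicate 1 was higher for 13 of 13 fast and 4 of 4 slow genes. Pregnant AzaC replicate 3 likewise exceeded replicate 1 for 13 of 13 fast genes, by a median of 1.79, and for 4 of 4 slow genes, by a median of 2.08.

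Correlations over the 15 arrays, given as a description, separated the same classes. Each fast gene correlated with the mean of the other fast genes at 0.925 to 0.994 and with the slow mean at 0.196 to 0.480. Each slow gene correlated with the other slow genes at 0.779 to 0.977 and with the fast mean at 0.123 to 0.369. The fast mean and the slow mean correlated at a Pearson r of 0.32 and a Spearman rho of 0.48, at r = 0.37 without virgin AzaC replicate 1 and pregnant PBS replicate 2, and at 0.31 within groups. Genes measured on the same arrays share each array's RNA and scaling.

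**Figure D2:**
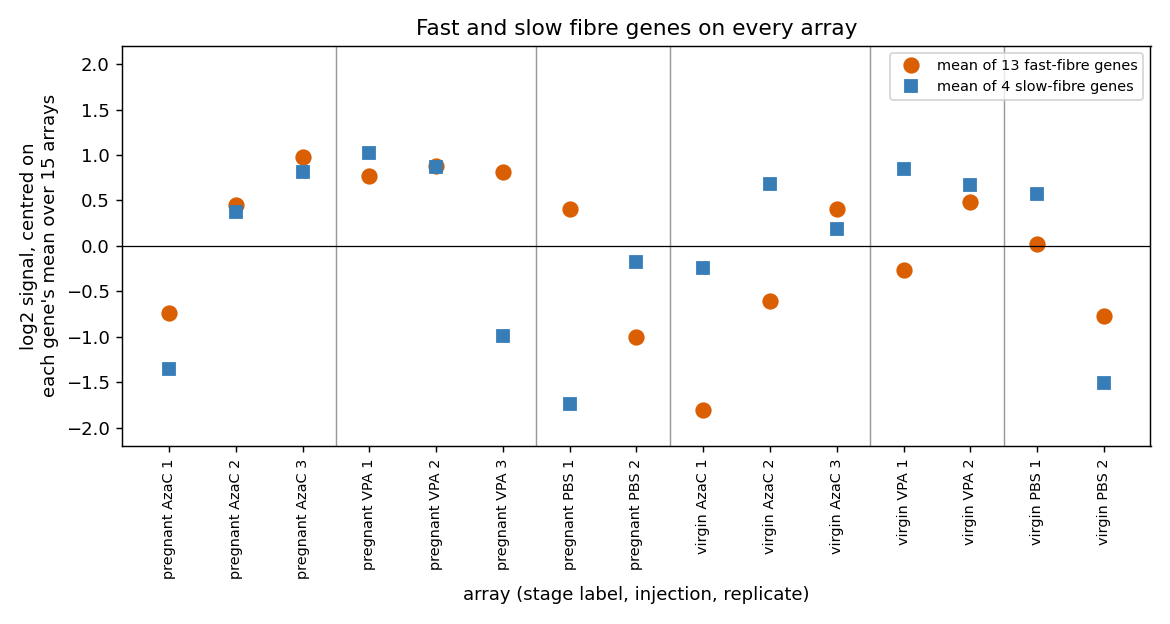
Mean of the 13 fast and of the 4 slow fibre genes on each array, as log2 signal minus each gene's mean over 15 arrays; circles are fast, squares slow, and lines separate the groups. Pregnant PBS replicate 1 has fast genes at 0.40 and slow genes at -1.73, and virgin AzaC replicate 1 has fast genes at -1.81 and slow genes at -0.25.

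The 4 lowest arrays by the slow mean were pregnant PBS replicate 1 at 6.02, virgin PBS replicate 2 at 6.24, pregnant AzaC replicate 1 at 6.40 and pregnant VPA replicate 3 at 6.77. The last 3 of these are the arrays with the largest Gapdh difference, while pregnant PBS replicate 1 had a Gapdh difference of 0.09. By the actin control, pregnant AzaC replicate 1 did not stand out, at 0.46. The part of RNA quality in these slow gene values was not tested. The 4 lowest by the fast mean were virgin AzaC replicate 1 at 9.83, pregnant PBS replicate 2 at 10.63, virgin PBS replicate 2 at 10.87 and pregnant AzaC replicate 1 at 10.89, with Gapdh differences of 0.07, 0.47, 1.23 and 0.85.

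The genes that both fibre types use mostly went with the fast genes. Acta1, skeletal alpha actin of the thin filament, read 12.7, 14 and 14.2 with AzaC, 14.13, 13.99 and 13.44 with VPA, and 13.47 and 12.34 with PBS under the pregnant label. Acta1 under the virgin label read 11.82, 13.06 and 13.68 with AzaC, 13.21 and 13.61 with VPA, and 13.74 and 11.86 with PBS. The lowest 2 arrays, virgin AzaC replicate 1 and virgin PBS replicate 2, lay under 12. Des, the intermediate filament desmin, read 9.71, 11.09 and 10.92 with AzaC, 11.02, 10.87 and 11.41 with VPA, and 10.59 and 9.36 with PBS under the pregnant label. Des under the virgin label read 8.65, 9.95 and 10.92 with AzaC, 10.53 and 10.7 with VPA, and 10.41 and 9.28 with PBS. A second, dimmer Des probe set correlated with the one used at -0.42, so the Des values rest on 1 probe set. Ttn, the giant spring of the sarcomere, read 12.88, 13.06 and 13.92 with AzaC, 13.3, 13.27 and 13.5 with VPA, and 13.1 and 12.65 with PBS under the pregnant label. Ttn under the virgin label read 10.73, 11.68 and 12.85 with AzaC, 11.68 and 12.82 with VPA, and 12.49 and 11.91 with PBS. Every pregnant-label AzaC array exceeded every virgin-label AzaC array for Ttn, and its other probe set correlated with this one at 0.99.

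Ldb3, a Z-disc protein, was less closely tied to the fast genes, with r = 0.67. Ldb3 read 10.3, 10 and 10.47 with AzaC, 10.56, 10.23 and 10.43 with VPA, and 9.75 and 9.52 with PBS under the pregnant label. Ldb3 under the virgin label read 9.08, 9.5 and 10.37 with AzaC, 9.49 and 9.77 with VPA, and 8.96 and 8.41 with PBS. Its PBS arrays labelled virgin were the lowest of the 15, and its other probe sets correlated with this one at 0.74 and 0.86. Of the other sarcomere genes, Actn2, the actinin of both fibre types, ranged from 6.30 to 9.12, Tcap, the titin cap, from 8.38 to 10.94, and Smpx, a small stretch-responsive muscle protein, from 6.75 to 9.04.

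Calcium release in muscle couples the voltage sensor Cacna1s of the surface membrane to the release channel Ryr1 of the calcium store, with Trdn as an anchor. Ryr1 read 9.61, 10.57 and 12.05 with AzaC, 11.51, 10.69 and 10.86 with VPA, and 10.59 and 8.66 with PBS under the pregnant label. Ryr1 under the virgin label read 7.57, 9.1 and 10.46 with AzaC, 9.42 and 10.2 with VPA, and 10.24 and 8.52 with PBS. Cacna1s read 6.87, 8.27 and 9.45 with AzaC, 8.87, 8.41 and 8.18 with VPA, and 8.02 and 5.67 with PBS under the pregnant label. Pregnant AzaC replicate 3 was the highest array for both. Cacna1s under the virgin label read 4.97, 6.2 and 7.95 with AzaC, 7.01 and 7.75 with VPA, and 7.51 and 4.74 with PBS. Trdn ranged from 8.46 to 11.13 on the probe set used. Of its other 5 probe sets, 3 correlated with that one at 0.88 to 0.99 and 2 dim ones at -0.08 and -0.23.

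Among metabolic genes, Ckm, the muscle creatine kinase that buffers ATP, read 12.03, 13.43 and 13.74 with AzaC, 13.41, 13.59 and 13.52 with VPA, and 13.1 and 11.68 with PBS under the pregnant label. Ckm under the virgin label read 10.88, 12.19 and 13.28 with AzaC, 12.5 and 13.11 with VPA, and 12.81 and 12.1 with PBS. Ckm correlated with the fast mean at 0.99. Eno3, the muscle form of the glycolytic enzyme enolase, read 9.88, 11.26 and 11.84 with AzaC, 11.56, 12.14 and 12.23 with VPA, and 11.42 and 9.43 with PBS under the pregnant label. Eno3 under the virgin label read 8.7, 10.23 and 11.48 with AzaC, 10.86 and 11.74 with VPA, and 10.63 and 10.1 with PBS. The AzaC arrays of either label overlapped the PBS arrays for Eno3. Mb, the oxygen store myoglobin of oxidative fibres, read 8.18, 10 and 9.95 with AzaC, 10.02, 10.17 and 9.91 with VPA, and 9.1 and 8.27 with PBS under the pregnant label. Mb under the virgin label read 8.22, 9.53 and 9.87 with AzaC, 9.53 and 9.96 with VPA, and 9.69 and 8.52 with PBS. Mb correlated with the fast mean at 0.87 and with the slow mean at 0.64. A second, dimmer Mb probe set correlated with the one used at -0.04, so the Mb values rest on 1 probe set. Pygm, muscle glycogen phosphorylase, ranged from 10.83 to 12.03.

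**Figure D3:**
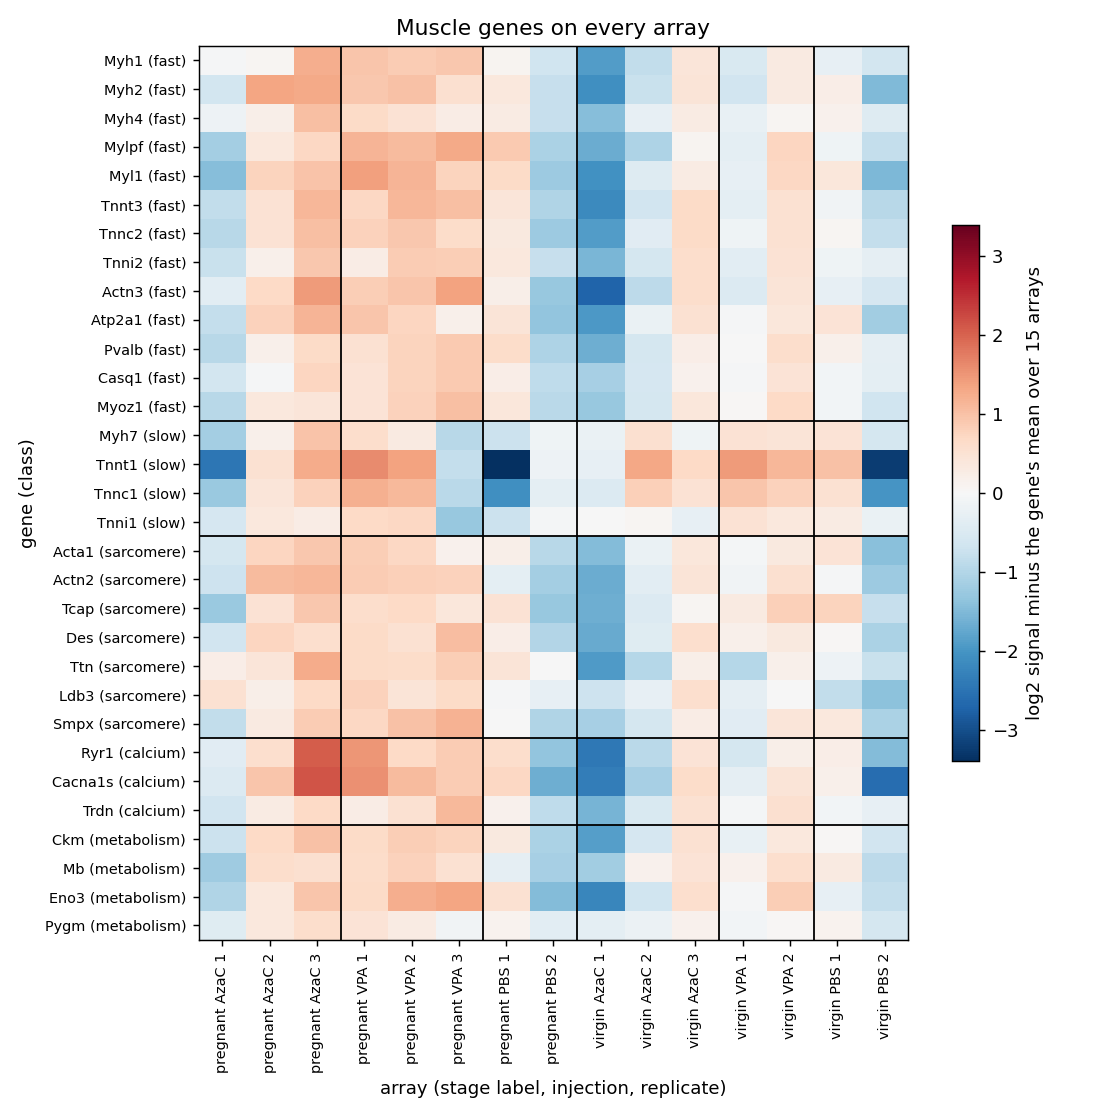
Log2 signal of each of the 31 measured muscle genes on each of the 15 arrays, minus the gene's mean over the arrays; red is above and blue below that mean, and black lines separate groups and classes. The fast and most shared genes are lowest on virgin AzaC replicate 1, while Tnnt1 and Tnnc1 are lowest on pregnant PBS replicate 1 and virgin PBS replicate 2.

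The spread between replicates was wide for these genes. The median within-group standard deviation (SD) of the 31 genes was 0.79, against 0.32 over all genes, and 31 of 31 lay above that all-gene median. Among genes with a mean of at least 9, the median was 0.79 for 24 muscle genes and 0.27 for all 3828. The range over the 15 arrays had a median of 2.82 for the muscle genes and 1.34 for all genes. Averaged over the 31 genes and centred, the arrays ran from -1.51 on virgin AzaC replicate 1 to 0.97 on pregnant AzaC replicate 3, both AzaC arrays. Array medians over all probe sets lay between 7.22 and 7.47. In such bulk samples, fewer muscle cells and less muscle RNA per cell cannot be told apart.

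VPA was set against PBS among arrays labelled pregnant to ask whether this inhibitor changed the muscle genes. For Tnnc2 the VPA arrays averaged 13.32 ± 0.15 (SD, n = 3) and the PBS arrays 12.10 ± 1.12 (SD, n = 2), a difference of 1.22 ± 0.74 (SE) with a 95% interval from -0.40 to 2.84. Of 31 muscle genes, 0 passed an adjusted p of 0.05 (limma, Benjamini-Hochberg over all genes), where 5.98% of all genes did, and 5 had an unadjusted p under 0.05. The share of all genes at that unadjusted cutoff is not given here, so the 5 genes are named as a description only. The median change was 1.12, against 0.06 over all genes, and 31 of 31 changes were above 0, from 0.33 to 2.51. Since these genes vary together on the arrays, their shared sign is not 31 separate observations. The VPA and PBS arrays did not overlap for 20 genes, in each case with VPA higher, where 25.7% of all genes did so in that direction.

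The 5 genes were Smpx at 1.48 ± 0.58 (SE), Actn2 at 1.55 ± 0.66, Ldb3 at 0.77 ± 0.33, Mb at 1.35 ± 0.61 and Casq1 at 1.02 ± 0.45, with limma adjusted p between 0.147 and 0.198. The largest change was that of Tnnt1, at 2.51 ± 1.40 with a 95% interval from -0.57 to 5.59, whose groups overlapped. Its value on PBS replicate 1, 4.12, lay under that array's lower quartile of 5.15. Acta1 differed by 0.95 (adjusted p = 0.418) and Ckm by 1.12 (adjusted p = 0.34) in the limma fit. The PBS arrays decided the size: the median change of the 31 genes was 0.47 without PBS replicate 2 and 1.74 without PBS replicate 1, with 31 of 31 above 0 each time.

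Markers of other cell types differed between these arrays too. The mean of 10 of 10 measured fibroblast markers was 9.63 to 10.37 on the VPA arrays and 8.96 to 9.01 on the PBS arrays labelled pregnant. The mean of 10 of 10 luminal markers was 13.23 to 13.39 with VPA and 12.56 to 12.61 with PBS, and that of 10 of 10 endothelial markers 7.95 to 8.68 with VPA and 7.10 to 7.74 with PBS. Their part in the muscle gene values was not tested.

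AzaC was set against PBS among arrays labelled pregnant in the same way, with the same PBS arrays. Of 31 muscle genes 0 passed the threshold in limma, where 7.57% of all genes did, and 0 had an unadjusted p under 0.05. The median change was 0.60, against 0.04 over all genes, and 31 of 31 lay above 0. For Tnnc2 the AzaC arrays averaged 12.74 ± 1.01 (SD, n = 3) and the PBS arrays 12.10 ± 1.12 (SD, n = 2), and the difference of 0.64 was smaller than either SD. Ckm differed by 0.68 and Tnnt1 by 1.57, each with an interval that spans 0. The AzaC arrays lay above both PBS arrays for Ldb3 alone, where 23.5% of all genes did so. Without PBS replicate 2 the median was 0.08 and 17 of 31 genes lay above 0, and without AzaC replicate 3 it was 24 of 31. Without PBS replicate 1 the median was 1.12, with 30 of 31 above 0. The endothelial marker mean was 7.98 to 8.78 with AzaC and 7.10 to 7.74 with PBS, and 10 of 10 markers lay above 0, of which Cldn5 rose in limma (adjusted p = 0.0258 with AzaC, and 0.0237 with VPA against the same PBS arrays). The fibroblast marker mean was 9.26 to 9.98 with AzaC and 8.96 to 9.01 with PBS, and the luminal mean 13.11 to 13.46 with AzaC and 12.56 to 12.61 with PBS. The part of these cell types in the muscle gene values was not tested here either.

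**Figure D4:**
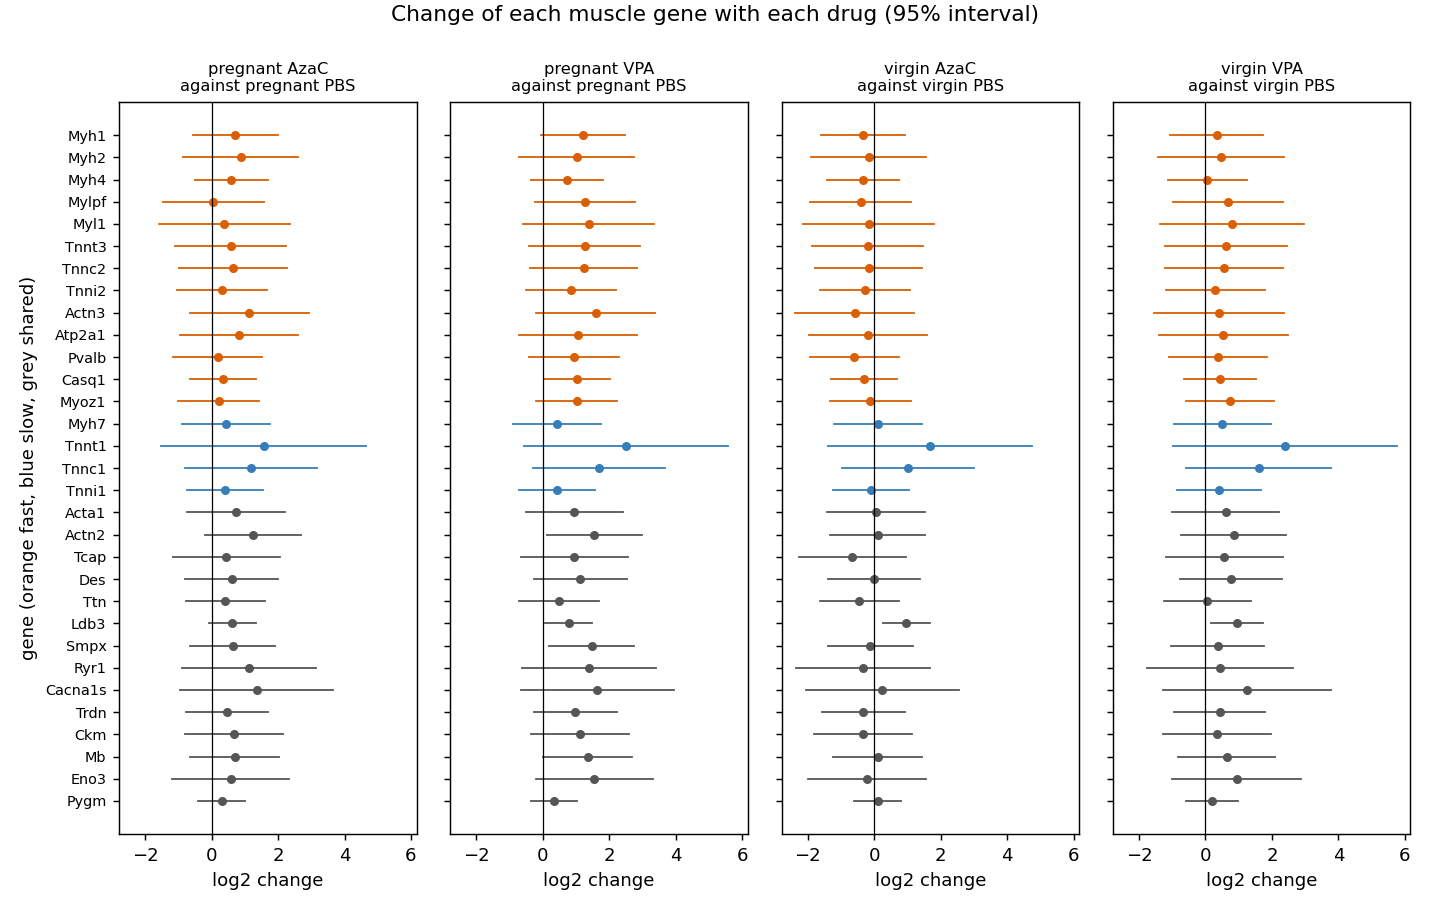
Log2 change of each of the 31 muscle genes with its 95% interval in the 4 comparisons of a drug with PBS under the same stage label; orange genes are fast, blue slow and grey shared. All points of pregnant VPA against pregnant PBS lie above 0, from 0.33 to 2.51, and most intervals include 0.

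Under the virgin label, AzaC against PBS gave a median change of -0.17, against 0.06 over all genes, with 9 genes above 0 and 22 below. No muscle gene passed the limma threshold (0 of 31, as for 0% of all genes), and 1 had an unadjusted p under 0.05. The 13 fast genes were all below 0, with a median of -0.28, and 3 of 4 slow genes above 0, with a median of 0.56. The direction hung on single arrays: the median was 0.28 without AzaC replicate 1, with 11 of 13 fast genes above 0, and -0.72 without AzaC replicate 3. Of all 31 genes, 22 lay above 0 without PBS replicate 1 and 1 without PBS replicate 2, when 0 of 4 slow genes did. VPA against PBS under the virgin label gave a median of 0.53, against 0.04 over all genes, with 31 of 31 above 0. Again 0 of 31 passed, where 0.00807% of all genes did, and 1 had an unadjusted p under 0.05. For 9 genes the VPA arrays lay above both PBS arrays, as they did for 20.8% of all genes. That median was 0.12 without PBS replicate 2, the array with the largest Gapdh difference, and 18 of 31 genes then lay above 0. It was 1.04 without PBS replicate 1, with 31 of 31 above 0, and 24 of 31 lay above 0 without VPA replicate 2. Ldb3 was the 1 gene with a small unadjusted p in both, at 0.96 ± 0.33 with AzaC (adjusted p = 0.704) and 0.94 ± 0.36 with VPA (adjusted p = 0.648, limma), against the same PBS arrays.

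The stage labels were compared within each injection. With AzaC, the pregnant label exceeded the virgin label by a median of 0.73, with 28 genes above 0 and 3 below. No muscle gene passed in limma (0 of 31, where 1.23% of all genes did) and 2 had an unadjusted p under 0.05. The groups did not overlap for Ttn alone, where 8.81% of all genes were apart with the pregnant label higher. Ttn averaged 13.29 ± 0.56 under the pregnant and 11.75 ± 1.06 under the virgin label (SD, n = 3 each), a change of 1.53 ± 0.49 (SE) with adjusted p = 0.141 in limma. Myh1 differed by 1.21 ± 0.52 (adjusted p = 0.244, limma). The median was 0.24 without virgin AzaC replicate 1. The 3 genes below 0 were the slow ones Myh7, Tnnt1 and Tnnc1. Without pregnant AzaC replicate 1, whose Gapdh difference was 0.85, the median was 1.25 and 31 of 31 genes, these 3 included, lay above 0. The fibroblast marker mean was 9.26 to 9.98 under the pregnant and 8.62 to 9.35 under the virgin label, with 10 of 10 markers above 0 and 0 past the threshold.

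With VPA, the pregnant label exceeded the virgin label by a median of 0.58 with 26 genes above 0 and 5 below, and 0 of 31 passed in limma, where 6.66% of all genes did. All 13 fast genes were above 0, with a median of 0.59, and all 4 slow genes below it, with a median of -0.44. The fifth gene below 0 was Tcap. The slow genes' sign rested on pregnant VPA replicate 3, whose Gapdh difference was 0.82: without it 3 of 4 slow genes lay above 0, with a median of 0.22, and 30 of 31 genes in all. The median of the 31 was 0.25 without virgin VPA replicate 1 and 0.91 without virgin VPA replicate 2. The difference between fast and slow genes, centred, averaged 0.52 ± 1.12 (SD, n = 3) under the pregnant and -0.65 ± 0.64 (SD, n = 2) under the virgin label, and the arrays overlapped. The unadjusted p was under 0.05 for 1 gene, Ldb3, at 0.78 ± 0.33 (limma adjusted p = 0.166). For 16 genes the pregnant-label arrays lay above both virgin-label arrays, where 26.2% of all genes did so. Other cell types' markers differed here as well. The fibroblast marker mean was 9.63 to 10.37 under the pregnant and 8.40 to 8.96 under the virgin label, with 10 of 10 above 0, a median of 1.39, and Col1a2, Col3a1 and Mfap5 past the threshold in limma. The salivary marker mean was 4.83 to 5.31 under the pregnant and 6.47 to 7.96 under the virgin label, with 8 of 9 below 0 and Bpifa2 and Bhlha15 past the threshold. These 2 genes were not alike on the pregnant PBS arrays, where Bhlha15 read 10.91 and 10.98 and Bpifa2 5.45 and 5.48. The part of these cell types in the muscle gene values was not tested. With PBS, the labels differed by a median of -0.07 with 15 genes above 0 and 16 below, 0 of 31 passed, where 0.00807% of all genes did, and 1 had an unadjusted p under 0.05. The PBS arrays of a label differed from each other by more than this: the median was -0.54 without pregnant PBS replicate 1 and 0.64 without pregnant PBS replicate 2. The genes above 0 numbered 3 without virgin PBS replicate 2 and 29 without virgin PBS replicate 1.

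The drugs were also set against each other. AzaC against VPA gave a median of -0.49 under the pregnant and -0.72 under the virgin label, with 30 of 31 genes below 0 in each. In limma 0 of 31 passed in either, as did 0% of all genes, and 0 had an unadjusted p under 0.05. The pregnant median was 0.01 without pregnant AzaC replicate 1, with 16 of 31 genes above 0. The virgin median was -0.17 without virgin AzaC replicate 1, with 4 of 31 above 0. The drug effect under the pregnant label minus that under the virgin label had a median of 0.77 for AzaC, where 0% of all genes passed, and of 0.56 for VPA, where 0.315% did. Both depended on single PBS arrays: without pregnant PBS replicate 2 the median was 0.17 for AzaC, with 22 of 31 genes above 0, and -0.0083 for VPA, with 14 of 31 above 0. Without virgin PBS replicate 1, 23 of 31 lay above 0 for AzaC and 17 of 31 for VPA. Neither test passed for any of the 31 muscle genes in limma, and 0 had an unadjusted p under 0.05 in either. Over all 11 comparisons, 11 of 341 pairs of gene and comparison had an unadjusted p under 0.05, and the lowest adjusted p was 0.141. No count at an unadjusted p is set here against the share of all genes at that cutoff.

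Other skeletal muscle genes were read from a list of 77, of which 64 were measured. With AzaC against PBS under the pregnant label 1 of the 64 rose and 0 fell, where 3.76% of all genes rose and 3.81% fell. With VPA against PBS 2 rose and 0 fell, where 3.64% of all genes rose and 2.34% fell. With VPA under the pregnant against the virgin label 2 rose and 0 fell, where 3.7% of all genes rose and 2.96% fell. In the other 8 comparisons 0 of the 64 passed in limma, where 0% to 1.23% of all genes did. Between 1 and 13 of the 64 had an unadjusted p under 0.05. The share of all genes at that cutoff is not given here, so these counts are a description only. Chrnb1, a subunit of the acetylcholine receptor at the nerve and muscle junction, read 8.59, 7.84 and 8.52 with AzaC, 8.34, 8.61 and 8.03 with VPA, and 5.94 and 5.86 with PBS under the pregnant label. Chrnb1 under the virgin label read 5.39, 7.85 and 7.49 with AzaC, 6.34 and 6.39 with VPA, and 7.18 and 5.91 with PBS. Both drugs were clear of the PBS arrays under the pregnant label. Chrnb1 did not keep to the order of the fast genes, though virgin AzaC replicate 1 was its lowest array too. It read 8.59 on pregnant AzaC replicate 1, where the fast mean was 10.89, and 5.94 on pregnant PBS replicate 1, where that mean was 12.04. Chrnb1 rose by 2.42 ± 0.61 (SE) with AzaC and by 2.43 ± 0.61 with VPA against the same PBS arrays, with limma adjusted p of 0.0372 and 0.042. The AzaC call was lost without AzaC replicate 1, AzaC replicate 3 or either PBS array, at adjusted p up to 0.166. The VPA call was lost without any 1 of the 5 arrays compared, at adjusted p up to 0.195, and both were lost without some arrays of other groups, at up to 0.0634. The change stayed between 2.28 and 2.65 for AzaC and between 2.29 and 2.57 for VPA.

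Mustn1, a small nuclear protein of the musculoskeletal system, read 7.27, 7.38 and 7.53 with AzaC, 7.55, 7.49 and 8.01 with VPA, and 6.74 and 6.83 with PBS under the pregnant label. Mustn1 under the virgin label read 7.46, 6.89 and 7.13 with AzaC, 6.85 and 6.65 with VPA, and 6.65 and 6.94 with PBS. The VPA arrays labelled pregnant were clear of both groups they were set against. Mustn1 rose by 0.90 ± 0.21 with VPA against PBS under the pregnant label (limma adjusted p = 0.0359) and by 0.93 ± 0.21 between the pregnant and the virgin label with VPA (adjusted p = 0.0318). Fbxo32, the ubiquitin ligase atrogin 1 of muscle wasting, read 10.93, 9.46 and 10.67 with AzaC, 10.14, 9.94 and 10.71 with VPA, and 8.33 and 8.69 with PBS under the pregnant label. Fbxo32 under the virgin label read 7.64, 8.97 and 9.61 with AzaC, 7.44 and 8.01 with VPA, and 8.54 and 8.4 with PBS. Its lowest arrays were a VPA array and an AzaC array labelled virgin. Fbxo32 averaged 10.26 ± 0.40 (SD, n = 3) under the pregnant and 7.72 ± 0.40 (SD, n = 2) under the virgin label with VPA, a rise of 2.54 (limma adjusted p = 0.0264). Each of these 3 calls was lost without any 1 of the 5 arrays compared, at adjusted p between 0.0513 and 0.198, with changes of the same sign. The Mustn1 call for VPA against PBS was also lost without either of 2 arrays of other groups, at an adjusted p of up to 0.0554. With VPA, the difference between the effects under the pregnant and the virgin label did not pass for either gene (limma adjusted p = 0.147 for Mustn1 and 0.138 for Fbxo32). Fbxo32 and Mustn1 are also transcribed outside skeletal muscle.

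Genes outside the list that tracked the mean of the muscle genes most closely over the 15 arrays were Myom2, Adssl1, Ndrg2, Eef1a2, Pde4dip, Fxyd1, Ckmt2, Tmem38a, Ak1 and Pfkm, with r between 0.949 and 0.990. Myom2 read 6.87, 9.02 and 9.48 with AzaC, 9.31, 8.95 and 8.93 with VPA, and 7.84 and 6.35 with PBS under the pregnant label. Myom2 under the virgin label read 5.06, 7.27 and 8.58 with AzaC, 7.62 and 8.64 with VPA, and 7.96 and 5.73 with PBS. The gene most like the slow mean was Myl2, the regulatory light chain of slow fibres and heart, with r = 0.98. Myl2 read 5.44, 8.83 and 8.76 with AzaC, 9.63, 9.51 and 6.37 with VPA, and 5.9 and 7.49 with PBS under the pregnant label. Myl2 under the virgin label read 7.81, 9.25 and 8.71 with AzaC, 9.71 and 9.62 with VPA, and 8.85 and 5.76 with PBS. Its lowest arrays were those at which Tnnt1 and Tnnc1 were lowest.

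Marker lists of other contractile cells were read beside the muscle genes. Genes listed as heart markers (9 of 9 measured) had gene means of 1.33 to 6.63, and their mean ran from 3.72 to 4.77 over the arrays. Nppa, the atrial peptide, read 3.27 to 5.11. Of 12 markers of muscle precursors, 10 were measured, with array means from 4.26 to 4.73. The satellite cell factor Pax7 read 2.93 to 5.32 and the muscle master regulator Myod1 4.33 to 6.43, where the lower quartile of probe sets lay at 5.13 to 5.25 on each array. Others of that list were higher or varied more: Mef2c, a transcription factor that mature muscle also uses, read 7.26 to 9.63, lowest on virgin AzaC replicate 1 and highest on pregnant AzaC replicate 3, and Myf6, a myogenic factor of mature fibres, read 2.99 to 6.42. Acta2, the smooth muscle actin of myoepithelium, read 12.94 to 13.56, a range of 0.62, against a range of 2.38 for Acta1. Acta2 had the smallest range of its list, in which Oxtr spanned 3.08 and Myh11 1.75. The mean of 13 of 13 myoepithelial and smooth muscle markers ran from 8.79 to 9.65.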

How the data were processed

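The series table, in which the authors deposited one processed value per probe set and array, holds 22690 probe sets with values from 0 to 14.48, taken as log2 signals from their range. The base of the logarithm and the background, summary and normalization methods are not given in the sources used here, and the values were used as deposited. Array medians lay between 7.22 and 7.47. The platform annotation of 2016 gave 20380 probe sets a single symbol, 691 several and 1619 none, and each of 12393 genes was read by its probe set with the highest mean. No filter on low values was applied.

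The linear model had a mean per group, and the 15 arrays entered 1 fit (limma lmFit and eBayes, version 3.58.1, R 4.3.3, 9 residual and 2.31 prior degrees of freedom). The 11 comparisons were tested two-sided, with Benjamini-Hochberg adjustment over all genes and a threshold of 0.05, and the fit was tested on simulated data. Centred values are a gene's signal minus its mean over the arrays. The muscle genes, fibre classes, marker lists and tests were chosen with earlier results of these data known. The text names all listed muscle genes. Every array is given for a set of them, Ldb3, Ryr1 and Cacna1s included, and the range or the lowest value for the other measured ones. Also named are other muscle genes past the threshold, and the 10 genes most like the mean of the muscle genes. The labels give no batch. Same-numbered arrays of different groups had deviations correlated at -0.17 to 0.33, and arrays of other numbers at -0.33 to 0.32. In a group of 2 arrays the deviations are exact opposites, so this check cannot exclude pairing. Replicate numbers were not taken to pair arrays in the main fit. Alternatives covered normalization, dim genes, probe sets, eBayes settings, arrays in the fit, a replicate block, a floor at 5, the Gapdh difference and each array left out. Promoters came from RefSeq, and figures were drawn with matplotlib 3.10.9.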

Additional observations from a re-analysis of the deposited data

How the results depend on the processing

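With 0 of 31 muscle genes past the threshold in each of the 11 comparisons, the count stayed at 0 under all 24 alternatives, 15 of which left out 1 array each. The lowest adjusted p of a muscle gene in any of them was 0.0565 (limma, VPA against PBS under the pregnant label without the 3 arrays with the largest Gapdh difference, an alternative chosen after seeing the data). In that setting the median AzaC effect, pregnant minus virgin, was 1.73 instead of 0.77. The sign of single genes depended on the arrays: leaving out 1 array turned up to 14 of 31 for AzaC and 0 for VPA against PBS under the pregnant label, and up to 18 and 13 under the virgin label. Of the few genes followed singly, 3 reversed with AzaC against PBS under the pregnant label: Ckm was -0.033 and Tnnc2 -0.15 without pregnant PBS replicate 2, and Tnnt1 was -0.037 without pregnant PBS replicate 1. Leaving out each array in turn, Ckm ran from -0.033 to 1.39, Tnnc2 from -0.15 to 1.43 and Tnnt1 from -0.037 to 3.17. The cause was not tested. The number of all genes past the threshold depended far more on the setting: 938 for AzaC against PBS under the pregnant label against 0 with only the arrays compared and 1623 with the Gapdh difference as a covariate, and 741 for VPA against PBS against 20 without pregnant PBS replicate 2 and 1240 without virgin AzaC replicate 1. For VPA, pregnant against virgin label, 825 compared with 4 without virgin VPA replicate 1 and 1318 with the covariate, and for AzaC 152 with 0 without virgin AzaC replicate 1 and 501 without pregnant AzaC replicate 2. The other counts over all genes reached at most 33 and 39 for AzaC and VPA against PBS under the virgin label, 22 between the PBS arrays of the labels, 2 and 17 for AzaC against VPA under the pregnant and virgin labels, and 49 and 337 for the AzaC and VPA effects, pregnant minus virgin, against 0, 1, 1, 0, 0, 0 and 39 as reported.

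With the replicate number as a block, 0 muscle genes passed in any comparison, and the median change was 0.37 for AzaC and 0.83 for VPA against PBS under the pregnant label. All genes past the threshold numbered 466 and 241 in those 2 comparisons. The 5 calls of Chrnb1, Mustn1 and Fbxo32 were all lost with the block, at limma adjusted p between 0.0547 and 0.101. The labels do not say whether the numbers pair the arrays.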
